A study of Mus musculus with 6 samples.

Results

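The genes described here act in G2 and mitosis, and were followed in bone marrow LSK cells of Ercc1-deficient mice and their litter mates. The list held 38 genes taken by symbol, and each was measured by the probe set of highest mean signal among those annotated with that symbol alone. Such a probe set was found for 37 of the 38, out of 18193 genes with one on the array, and the signal of Ccnb1 is not analysed here. All 37 passed the filter on weak signals, a mean over the 6 arrays at or above the median of all probe sets. LSK cells are the lineage-depleted marrow cells stained for Sca-1 and c-Kit, a fraction that holds blood stem cells and early progenitors. Deficient cells, 3 arrays, were of genotype -/d, with a knockout and a truncated allele of Ercc1, a gene of nucleotide excision and crosslink repair. Proficient cells, 3 arrays, were of +/+ litter mates in litters 1 and 2 and of a +/d litter mate in litter 3. All mice were F1 animals of C57BL/6 and FVB/n, aged 22 weeks in litter 1 and 20 weeks in litters 2 and 3. The alleles are those of the whole animal, so no tissue of a -/d mouse is proficient.

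Entry into mitosis is driven by Cdk1 bound to A- and B-type cyclins, whose inhibitory phosphates are removed by Cdc25 phosphatases. Aurora and Polo kinases then shape the spindle, kinesins move along its microtubules, kinetochores tie chromosomes to them, and the spindle checkpoint holds back the anaphase-promoting complex until every chromosome is attached. Most of these genes are transcribed late in the cycle and are low in resting cells; most blood stem cells rest, while downstream progenitors divide often. In RNA from sorted bulk cells, a change in the share of cycling cells and a change in mitotic RNA per cycling cell cannot be told apart.

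Members of this group are known to share 2 short promoter elements, the CCAAT box bound by NF-Y and the cell cycle homology region bound by the DREAM and MuvB complexes. The 6 promoters shown here carry both and belong to the members of smallest unadjusted p that do. Each is the 180 bases before the gene's start from RefSeq, build GRCm38.p6, and capitals mark CCAAT, or its reverse ATTGG, and TTTGAA or TTCGAA, or the reverse TTCAAA.
Ect2: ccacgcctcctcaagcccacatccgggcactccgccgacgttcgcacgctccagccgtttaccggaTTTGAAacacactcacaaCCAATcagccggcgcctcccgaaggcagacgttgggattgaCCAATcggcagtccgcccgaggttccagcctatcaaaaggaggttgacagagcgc
Kif11: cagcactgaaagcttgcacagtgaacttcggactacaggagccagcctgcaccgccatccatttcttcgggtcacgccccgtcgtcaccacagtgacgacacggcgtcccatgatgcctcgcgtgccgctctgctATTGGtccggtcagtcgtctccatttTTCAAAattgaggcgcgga
Ckap2l: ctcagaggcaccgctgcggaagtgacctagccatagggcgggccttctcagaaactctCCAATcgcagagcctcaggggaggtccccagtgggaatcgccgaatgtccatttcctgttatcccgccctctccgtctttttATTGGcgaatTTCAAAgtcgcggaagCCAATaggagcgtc
Ccnb2: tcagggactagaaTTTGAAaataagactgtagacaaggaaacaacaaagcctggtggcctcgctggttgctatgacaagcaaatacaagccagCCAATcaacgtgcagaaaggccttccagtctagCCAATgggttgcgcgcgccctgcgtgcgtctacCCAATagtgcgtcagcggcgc
Ube2c: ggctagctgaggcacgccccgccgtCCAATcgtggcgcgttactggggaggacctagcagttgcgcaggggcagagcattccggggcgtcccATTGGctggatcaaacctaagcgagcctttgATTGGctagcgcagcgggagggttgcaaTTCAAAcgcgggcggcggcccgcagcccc
Cdk1: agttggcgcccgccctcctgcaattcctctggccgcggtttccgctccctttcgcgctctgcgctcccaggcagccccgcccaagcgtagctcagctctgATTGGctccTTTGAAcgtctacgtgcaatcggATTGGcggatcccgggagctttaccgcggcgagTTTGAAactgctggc

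They lie at chr3:27153879-27154058, minus strand, for Ect2, at chr19:37376202-37376381, plus strand, for Kif11 and at chr2:129297213-129297392, minus strand, for Ckap2l. The others lie at chr9:70421555-70421734, minus strand, for Ccnb2, at chr2:164769749-164769928, plus strand, for Ube2c and at chr10:69352913-69353092, minus strand, for Cdk1. In Kif11 the sequence TTCAAA begins 19 bases before the start and ATTGG 45 bases before it, and in Cdk1 the nearest pair begins at 15 and 48 bases. The order is reversed in Ect2 and Ccnb2, where TTTGAA begins at 114 and 167 bases, farther from the start than any CCAAT shown. In the 250 bases before a start, read on both strands, CCAAT was found in 25 of the 32 listed genes with an entry in the promoter table, Ccnb1 included, 78.1%, against 37.5% of the 27025 genes in that table. More than 1 CCAAT stood in 18 of the 32, 56.2%, against 11.5% of all. TTTGAA or TTCGAA was found in 12 of the 32, 37.5%, against 19.6%, and both elements before 1 start in 11 of the 32, 34.4%, against 7%. Kif20a, Cdc25c, Aurkb, Ccna2, Tpx2 and Dlgap5 had no entry. The 2 motifs can overlap by at most 1 base, and a match is only a match of letters.

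The signals are MAS5 intensities on a linear scale with a floor at 30, and between 52.3% and 58.6% of the signals on an array lay at that floor. A log2 difference below is the mean of log2(signal + 30) in deficient arrays minus that in proficient arrays, which understates the change of weak genes. The brightest Ercc1 probe set gave signals of 79.9, 34.5 and 44.9 in deficient cells of litters 1, 2 and 3, against 128, 244 and 176 in their proficient litter mates, so that it was lower in the deficient array of every litter. Ly6a, which encodes Sca-1, is not analysed here. Kit, Cd34 and Flt3 lay above the floor on all 6 arrays, which does not by itself show what the cells were. Kit measured 125, 95.8 and 92.2 in deficient cells and 231, 123 and 151 in proficient cells, lower in the deficient array of every litter. Of the 22519 probe sets that entered limma, 0 (0%) passed an adjusted p of 0.05 when litter was ignored, though for 579 (2.57%) the unadjusted value lay under 0.05. With litter as a block 188 (0.835%) passed, 71 of them higher and 117 lower in deficient cells. None passed with the block once any of the 3 litters was left out.

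Most mitotic genes had slightly higher mean signals in Ercc1-deficient LSK cells, and for no single gene did the difference pass the test. The mean log2 difference was above 0 for 33 of the 37 measured genes, 89.2%, against 46% of all probe sets tested. Their median was 0.28, with a range of -0.20 to 0.79, and the median of all probe sets tested was -0.03. Every adjusted p of the 37 was 0.9998 in limma without a litter term, and with litter as a block the smallest was 0.138, for Birc5. An unadjusted p under 0.05 was found for 0 of the 37 without a litter term and for 6 with the block, 16.2%, against 11.5% of all probe sets. All 6 had the higher mean in deficient cells, which together with such a p held for 4.12% of all probe sets. They were Birc5, Ect2, Mad2l1, Ndc80, Ckap2l and Cdca8.

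Within litters, the deficient array was the higher one in all 3 pairs for 16 of the 37 genes, 43.2%, against 11.3% of all probe sets tested. These 16 were Ccnb2, Cdc25c, Aurka, Aurkb, Birc5, Cdca8, Bub1b, Mad2l1, Ttk, Cdc20, Fbxo5, Kif11, Kif23, Nuf2, Ckap2l and Ect2. Anln alone was lower in all 3, which 17% of all probe sets were. The groups of arrays did not overlap for Birc5, Mad2l1, Ttk and Kif11, 4 of 37 or 10.8%, with the deficient arrays on top, against 2.3% of all probe sets. For 0 of the 37 did every deficient array lie below every proficient one, as 4.89% of all probe sets did. By litter the median member differed by 0.38, 0.06 and 0.32, and 26, 23 and 32 of the 37 genes were higher in the deficient array. Without the proficient array of litter 2 the mean difference was above 0 for 24 of the 37. The 11260 brighter probe sets of a stricter filter, which 35 of the 37 genes passed, had a median of -0.01 and were above 0 in 48.6% of cases.

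Across the 6 arrays the genes moved by litter as well as by genotype. Set against each gene's own mean, the median member stood at 0.28, -0.17 and 0.23 log2 units in deficient arrays of litters 1, 2 and 3, and at -0.09, -0.31 and 0.01 in proficient ones. Both arrays of litter 2 were thus below both arrays of litter 3. The highest array was a deficient one for 29 of the 37 genes, 14 of them in litter 3, and the lowest a proficient one for 30, 14 of them in litter 2 and 13 in litter 1.

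**Figure D1:**
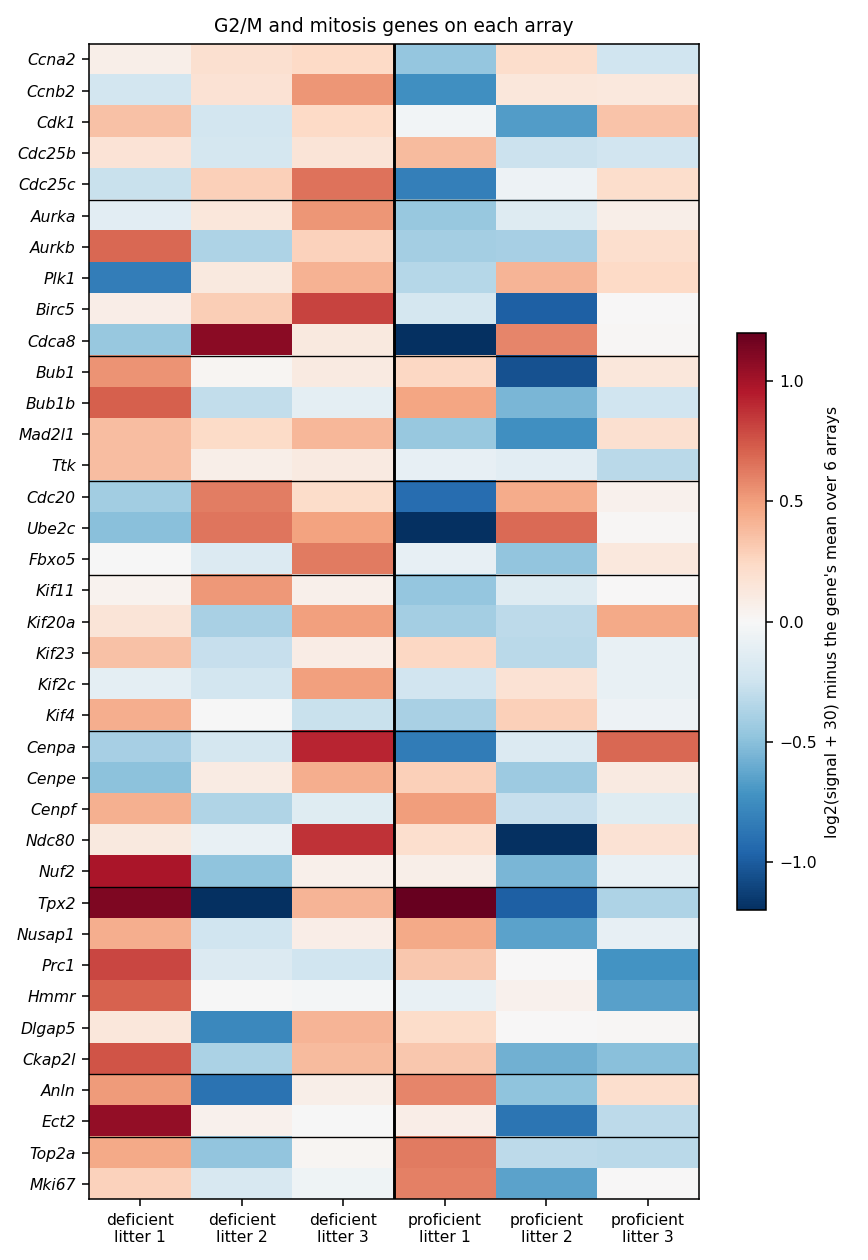
Each row is a member and each column an array, with the 3 deficient arrays left of the line and the 3 proficient arrays right of it; colour gives log2(signal + 30) minus the gene's mean over the 6 arrays, capped at the ends of the scale. Proficient arrays of litters 1 and 2 hold most of the lowest values, and Tpx2 follows litter 1 in both genotypes.

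Cyclins, Cdk1 and the Cdc25 phosphatases, which set the timing of mitotic entry, had a median log2 difference of 0.32, with 5 of 5 measured genes above 0. Cdc25c, a phosphatase that activates Cdk1, gave signals of 58.1, 99.7 and 136 in deficient cells of litters 1, 2 and 3, against 30, 72.1 and 93.0 in their proficient litter mates. It was higher in the deficient array of each litter by a ratio of 1.94, 1.38 and 1.46, although the groups overlapped and 1 proficient array was at the floor. Ccna2, the A-type cyclin of S and G2 phase, measured 704, 768 and 794 in deficient cells and 478, 781 and 564 in proficient cells. The B-type cyclin Ccnb2 measured 295, 396 and 515 in deficient cells and 196, 384 and 383 in proficient cells. For both cyclins the gap lay in litters 1 and 3, and litter 2 differed by a ratio of only 0.983 for Ccna2 and 1.03 for Ccnb2. Cdk1 had a log2 difference of 0.24 with its litter 3 pair turned the other way, and Cdc25b, which acts earlier in G2, one of 0.07. The role's litter medians were 0.52, 0.05 and 0.40, and its median was 0.18 without the proficient array of litter 1 or without the deficient array of litter 3.

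The Aurora and Polo kinases and the chromosomal passenger complex had a median of 0.40 and held the largest single difference of the list. Birc5, or survivin, the passenger subunit that brings Aurora B to centromeres, gave signals of 387, 456 and 663 in deficient cells of litters 1, 2 and 3, against 311, 170.1 and 368 in their proficient litter mates. Every deficient array stood above every proficient one. The log2 difference was 0.79 ± 0.40 (SE, 3 arrays each, limma without a litter term, adjusted p = 0.9998). With litter as a block the SE was 0.23 (limma, adjusted p = 0.138). Without the proficient array of litter 2 the difference was 0.50. Aurka, the centrosomal Aurora kinase, measured 120.0, 150.0 and 207 in deficient cells and 89.1, 117 and 142 in proficient cells. Aurkb, the kinase of the passenger complex, measured 312, 134 and 227 in deficient cells and 130.2, 131 and 213 in proficient cells. Aurka was higher by a similar ratio of 1.35, 1.29 and 1.45 in the 3 litters, while the ratio for Aurkb was 2.4 in litter 1 and 1.02 and 1.06 in litters 2 and 3. Cdca8, or borealin, another passenger subunit, had a log2 difference of 0.50, which was -0.05 without the proficient array of litter 1. Plk1, the Polo kinase, went the other way, with 47.9, 119.9 and 154 in deficient cells of litters 1, 2 and 3, against 78.9, 153 and 133 in their proficient litter mates. Its deficient array was the lower one in litters 1 and 2 and the higher one in litter 3.

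All 4 genes of the spindle checkpoint had a mean difference above 0, with a median of 0.41 and litter medians of 0.39, 0.61 and 0.16. Without the proficient array of litter 2 that median was 0.21. Mad2l1, whose protein binds and restrains Cdc20, gave signals of 718, 647 and 731 in deficient cells of litters 1, 2 and 3, against 393, 318 and 629.8 in their proficient litter mates. The deficient arrays lay close together and above all proficient ones. The log2 difference of Mad2l1 was 0.66 ± 0.39 (SE, 3 arrays each, limma without a litter term, adjusted p = 0.9998). With litter as a block the SE was 0.228 (limma, adjusted p = 0.23). Ttk, the kinase that starts checkpoint signalling, measured 140.1, 108 and 111 in deficient cells and 92.5, 90.4 and 75.2 in proficient cells. Bub1, a checkpoint kinase at kinetochores, measured 491, 333 and 355 in deficient cells and 394, 143 and 363 in proficient cells. Ttk separated the groups at a log2 difference of 0.37, whereas Bub1 owed its 0.45 mostly to the low proficient array of litter 2. Bub1b, the pseudokinase BubR1, had a log2 difference of 0.21, which was -0.10 without the deficient array of litter 1 and -0.02 without the proficient array of litter 2.

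**Figure D2:**
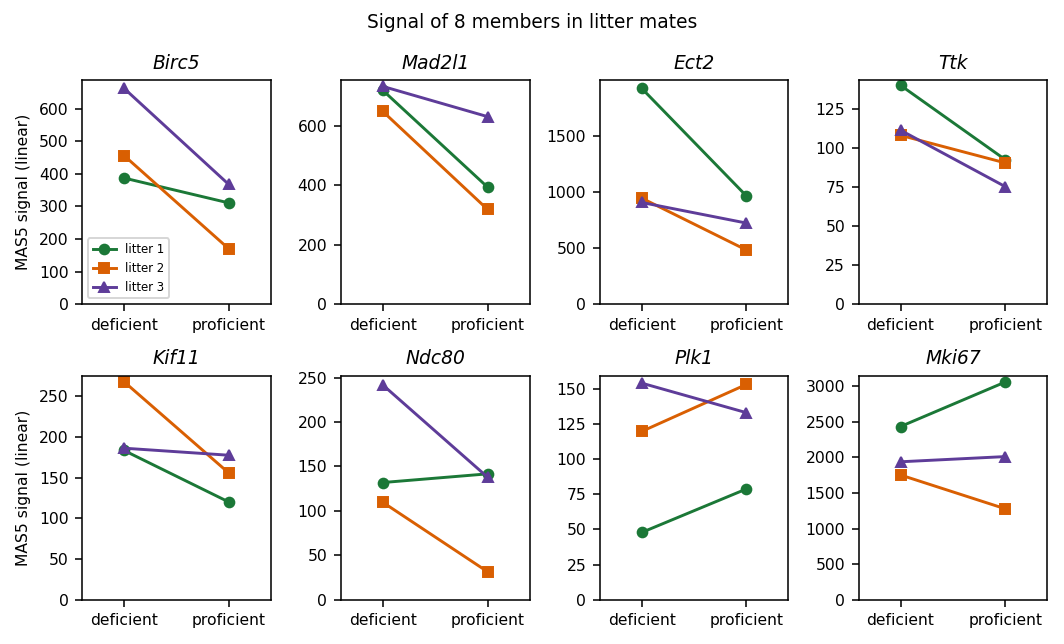
Linear MAS5 signal (axes from 0) of 8 members, with deficient arrays left and proficient arrays right, and a line joining the litter mates of litters 1, 2 and 3. Birc5, Mad2l1, Ttk and Kif11 slope down to the right in every litter without overlap, Ndc80 does so in litters 2 and 3, and the lines of Plk1 and Mki67 run both ways.

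The regulators of the anaphase-promoting complex had a median of 0.30. Ube2c, the ubiquitin-conjugating enzyme of that complex, gave signals of 169, 409 and 361 in deficient cells of litters 1, 2 and 3, against 82.5, 421 and 253 in their proficient litter mates. Fbxo5, or Emi1, which inhibits the complex before mitosis, measured 415, 367 and 655 in deficient cells and 386, 290.0 and 455 in proficient cells. Cdc20, its mitotic activator, measured 1374, 2833 and 2154 in deficient cells and 962, 2529 and 1914 in proficient cells. Fbxo5 and Cdc20 were higher in the deficient array of each litter and Ube2c in litters 1 and 3, but all 3 overlapped between the groups. Ube2c and Cdc20 were lowest in the proficient array of litter 1; without it their log2 differences were -0.14 and -0.11, and the role's median was -0.11.

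The 5 kinesins had a median of 0.11, with litter medians of 0.51, -0.07 and 0.06. That median was 0.02 without the proficient array of litter 1, 0.20 without that of litter 2 and 0.26 without the deficient array of litter 2. Kif11, the motor Eg5 that pushes spindle poles apart, gave signals of 184, 268 and 186 in deficient cells of litters 1, 2 and 3, against 120.1, 156 and 178 in their proficient litter mates. Its groups did not overlap, at a log2 difference of 0.42 with a standard error of 0.34, though the pair of litter 3 differed by a ratio of only 1.05 and the difference was 0.26 without the deficient array of litter 2. Kif20a, a motor of the central spindle, measured 115, 69.9 and 154 in deficient cells and 68.8, 74.8 and 149 in proficient cells. Kif4, a chromosome-bound kinesin, measured 118, 79.0 and 60.8 in deficient cells and 53.9, 104 and 74.7 in proficient cells. Both were higher in the deficient array of litter 1 and lower in that of litter 2, Kif4 also in litter 3, and the log2 difference of Kif4 was -0.25 when litter 1 was left out under the block. Kif23 and Kif2c, of the cytokinetic midzone and of centromeres, had log2 differences of 0.11 and 0.09.

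At kinetochores and centromeres the median was 0.20, and litter medians were -0.07, 0.06 and 0.22. Ndc80, the core microtubule binder of the outer kinetochore, gave signals of 132, 109.6 and 242 in deficient cells of litters 1, 2 and 3, against 142, 31.3 and 138 in their proficient litter mates. Its difference of 0.60 rested on litters 2 and 3, with the proficient array of litter 2 near the floor, and was 0.11 without that array and 0.31 without the deficient array of litter 3. Nuf2, its partner in the same complex, measured 477, 154 and 238 in deficient cells and 240.5, 146 and 211 in proficient cells. Although the proteins form a pair, Nuf2 was most different in litter 1, where Ndc80 was slightly lower in deficient cells, and its log2 difference of 0.37 was -0.02 without the deficient array of that litter. Cenpa, the centromeric histone variant, measured 418, 479 and 1081 in deficient cells and 299.7, 498 and 923 in proficient cells. Cenpf, a late kinetochore protein, had 263, 139 and 167 in deficient cells and 277, 149.6 and 167 in proficient cells, nearly the same in litter mates, and its log2 difference of -0.05 was 0.01 with quantile normalization and 0.04 with median centring. Cenpe, a kinetochore kinesin, had a log2 difference of 0.03, with litter 1 lower and litters 2 and 3 higher in deficient cells. Without the deficient array of litter 3 the role's median was 0.0085.

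Proteins of spindle assembly and microtubules had a median of 0.22, which was -0.03 without the deficient array of litter 1. Hmmr, a spindle and centrosome protein, gave signals of 473, 277 and 273 in deficient cells of litters 1, 2 and 3, against 259, 289.9 and 167 in their proficient litter mates. Ckap2l, a spindle pole protein, measured 785, 342 and 597 in deficient cells and 574, 295 and 312 in proficient cells. Prc1, which bundles microtubules of the central spindle, measured 598, 291 and 275 in deficient cells and 422, 332 and 189 in proficient cells. Ckap2l was higher in deficient cells of every litter at a log2 difference of 0.50, which was 0.25 without the deficient array of litter 1, while Hmmr and Prc1 were slightly lower there in litter 2. Dlgap5, a spindle assembly factor, had 126, 52.9 and 158 in deficient cells and 135, 112 and 114 in proficient cells, and litter 2 gave most of its log2 difference of -0.16. Nusap1 and Tpx2, which stabilise spindle microtubules, had log2 differences of 0.19 and 0.07. In all 6 of these genes the deficient array of litter 3 was the higher one, and in 4 of 6 that of litter 2 was the lower one.

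The cytokinesis genes split, and their median of 0.27 was -0.05 without the deficient array of litter 1 and -0.0013 without the proficient array of litter 2. Ect2, the exchange factor that activates RhoA at the cleavage furrow, gave signals of 1924, 945 and 907 in deficient cells of litters 1, 2 and 3, against 964, 483 and 723 in their proficient litter mates. It was higher in deficient cells of each litter, but litter 1 ran high in both genotypes and the groups overlapped. The log2 difference was 0.74 ± 0.45 (SE, 3 arrays each, limma without a litter term, adjusted p = 0.9998). With litter as a block the SE was 0.23 (limma, adjusted p = 0.159). Without the deficient array of litter 1 the difference was 0.40, and without the proficient array of litter 2 it was 0.49. Anln, the scaffold anillin of the same furrow, had 237, 71.3 and 167 in deficient cells and 250.4, 104 and 184 in proficient cells, lower in deficient cells of each litter at a log2 difference of -0.20.

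The 2 genes most used as proliferation markers had log2 differences near 0 by their brightest probe sets, while a dimmer tested one of Top2a had 0.25. Mki67, the Ki-67 antigen, gave signals of 2435, 1753 and 1939 in deficient cells of litters 1, 2 and 3, against 3062, 1277 and 2012 in their proficient litter mates. Top2a, the topoisomerase that untangles chromosomes, measured 3763, 1961 and 2779 in deficient cells and 4219.7, 2196 and 2171 in proficient cells. Their log2 differences were 0.02 with a standard error of 0.45 and 0.01 with one of 0.46, and the litters did not share a direction for either. Both turned below 0 with quantile normalization, at -0.18 for Mki67 and -0.19 for Top2a. Their median was also below 0 without the deficient array of litter 1, at -0.16, and without the proficient array of litter 2 or 3, at -0.22 and -0.06.

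**Figure D3:**
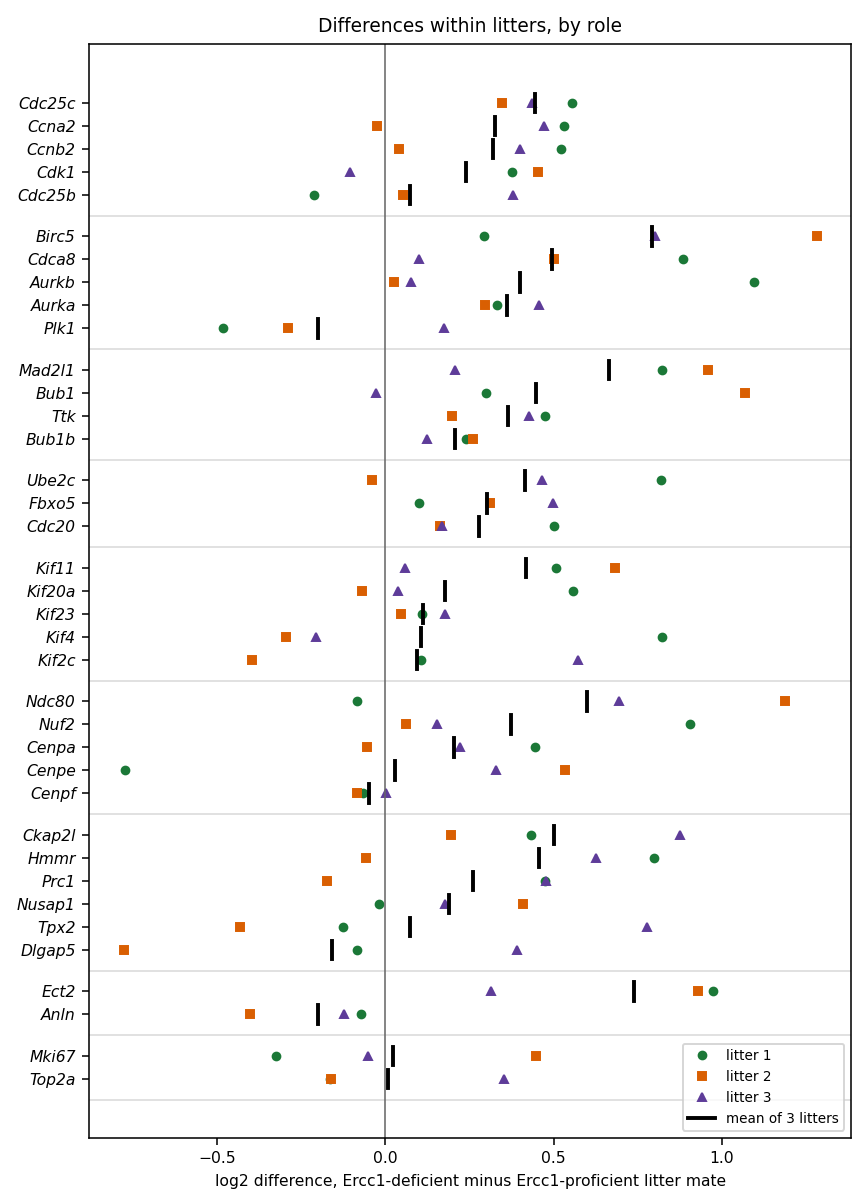
Log2 difference of each member between the deficient and the proficient array of a litter (green circle, orange square and purple triangle for litters 1, 2 and 3), with a black bar at the mean, in blocks by role. The bars of 28 genes lie between 0 and 0.5, Birc5 is farthest right, and Plk1, Cenpf, Dlgap5 and Anln have bars below 0.

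Checkpoint, kinesin, kinetochore and cyclin genes were set against each other by their medians within litters, as a description of few genes each. The checkpoint median minus the kinesin median was 0.30 over all arrays, and -0.12, 0.68 and 0.11 in litters 1, 2 and 3. Checkpoint minus kinetochore was 0.20, with 0.45, 0.55 and -0.06 in the litters, and checkpoint minus cyclins 0.09, with -0.14, 0.56 and -0.24. Kinesins minus cyclins was below 0 in all 3 litters, at -0.01, -0.12 and -0.34. Kinesins minus kinetochore was 0.58, -0.13 and -0.16, and kinetochore minus cyclins -0.59, 0.01 and -0.18. Apart from kinesins against cyclins, no pair of these roles kept one order in the 3 litters.

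**Figure D4:**
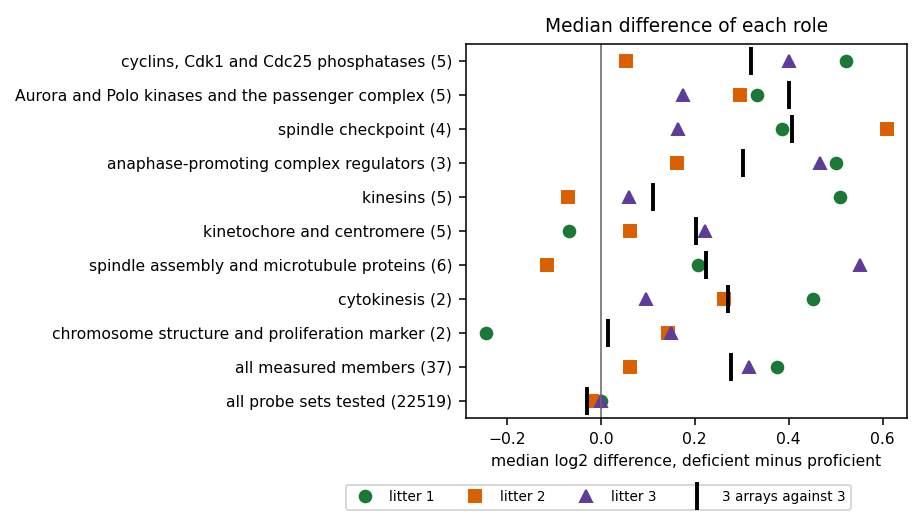
Median log2 difference of each role (number of genes in parentheses) in litters 1, 2 and 3 and, as a black bar, over 3 arrays against 3, above the same for all measured members and all probe sets tested. The litter markers of one role lie apart, as for the kinesins at 0.51, -0.07 and 0.06, and the bar of the members lies at 0.28 against -0.03 for all probe sets.

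Other probe sets of the same genes gave a second reading from the same arrays. For 23 members there was more than 1 probe set, and 28 of the 38 further ones passed the filter. Of these 28, 24 had a difference above 0 and 23 had the sign of the chosen probe set. The difference was smaller than that of the chosen probe set in 17 of the 28 and larger in 11. Its median was 0.17, against 0.30 for the matching chosen ones, counted once per other probe set. Where the chosen value was 0.3 or more, 11 of 14 other probe sets were below it. Among genes whose groups did not overlap, Kif11 had 0.13 and 0.18 by its other probe sets against 0.42 by the chosen one, and Ttk 0.11 against 0.37. Ckap2l had 0.08 against 0.50, and Cdca8 0.20 and 0.05 against 0.50, while Bub1 had 0.56 against 0.45 and Ccna2 0.41 against 0.33. Cenpa disagreed with itself, at -0.31 and 0.61 by 2 dimmer probe sets against 0.20 by the brightest. When all probe sets of a gene were averaged instead of taking the brightest, 34 of the 37 were above 0 and the median was 0.20.

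Further genes of G2 and mitosis outside the list also mostly lay above 0. Of 79 such genes 78 had a probe set and 74 passed the filter; 66 of the 78 were above 0, with a median of 0.23, and 27 were higher in all 3 litters, 34.6%. None passed by itself in limma with or without the block. The smallest unadjusted p without a litter term belonged to Ska3, Pmf1, Cenpk and Nek2. Ska3, of the kinetochore's Ska complex, measured 49.8, 53.9 and 52.5 in deficient cells and 30, 38.8 and 33.1 in proficient cells. Pmf1, of the Mis12 kinetochore complex, measured 101, 283 and 201 in deficient cells and 99.1, 112 and 65.5 in proficient cells. Deficient arrays lay above all proficient ones for Ska3, close to the floor, and litters 2 and 3 carried the difference of Pmf1. The inner kinetochore gene Cenpk measured 552, 769 and 437 in deficient cells and 280.2, 313 and 459.8 in proficient cells. Nek2, a centrosomal kinase, measured 118, 69.8 and 143 in deficient cells and 60.0, 60.9 and 69.4 in proficient cells, again without overlap. With the block the smallest p belonged to Cdca3, a gene of mitotic entry singled out after its values were seen, which measured 311, 888 and 874 in deficient cells and 167, 487 and 469 in proficient cells. The 3 litters gave it nearly equal ratios of 1.86, 1.83 and 1.86, though the groups overlapped (limma, adjusted p = 0.0837 with the block).

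Foxm1 and Mybl2, activators of this programme, gave weak signals. Foxm1, the forkhead activator of G2/M genes, had 105, 50.1 and 30 in deficient cells and 37.6, 71.2 and 30 in proficient cells, and Mybl2, the B-Myb subunit of the activating complex, 30, 58.9 and 67.1 in deficient cells and 30, 62.9 and 30 in proficient cells. Both touched the floor on at least 1 array of each genotype and followed no common direction in the 3 litters. Of 15 regulators 13 were above 0, with a median of 0.21 and litter medians of 0.40, -0.06 and 0.08, and the median was -0.10 without the deficient array of litter 1. Tfdp1, the dimerisation partner of E2F factors, had a log2 difference of 0.56, Lin54, the subunit that binds the cell cycle homology region, 0.38, and Rbbp4, a histone-binding subunit, 0.46. Rbl2, the pocket protein p130 of resting cells, had one of -0.27. The NF-Y subunits, singled out after their values were seen, lay well above the floor, with log2 differences of -0.36 for Nfya, lower in deficient cells of all 3 litters, 0.39 for Nfyb and 0.19 for Nfyc. None of the 14 regulators that entered limma passed the test. E2f4, at the floor on 5 of the 6 arrays, did not enter it and counts as above 0 with a log2 difference of 0.02.

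Brakes on entry into mitosis showed no common shift, with 8 of 14 above 0, 5 below and a median of 0.03. Cdkn1a, the p53-induced inhibitor p21, had signals of 135, 170.1 and 141 in deficient cells and 70.3, 86.8 and 67.3 in proficient cells. Chek2, a checkpoint kinase of the damage response, measured 569, 363 and 428 in deficient cells and 316, 349 and 284 in proficient cells. Deficient arrays stood above all proficient ones for both, with adjusted p = 0.153 and 0.451 in limma with litter as a block. Ccng2, a cyclin of arrested cells, had a log2 difference of -0.47, and Plk2 was at the floor on every array but the proficient one of litter 1.

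Genes of G1/S and DNA replication, which act earlier in the cycle, had a smaller median, 0.09, with 32 of 48 above 0 and 12 higher in all 3 litters, 25%. Their litter medians were 0.35, -0.02 and 0.09, against 0.38, 0.06 and 0.32 for the mitotic genes, and their median was -0.15 without the proficient array of litter 1. No test of the difference between these lists was made. Ccnd1, a D-type cyclin, had 483, 252 and 477 in deficient cells and 289, 123 and 196 in proficient cells, and Rrm2, a ribonucleotide reductase subunit, 12181, 8525 and 9627 in deficient cells and 5476, 6468 and 7216 in proficient cells. The flap endonuclease gene Fen1 and the D-type cyclin gene Ccnd3 had log2 differences of 0.82 and -0.59. None of the 48 passed the test, the smallest adjusted p being 0.0595 for Ccnd1 in limma with litter as a block.

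**Figure D5:**
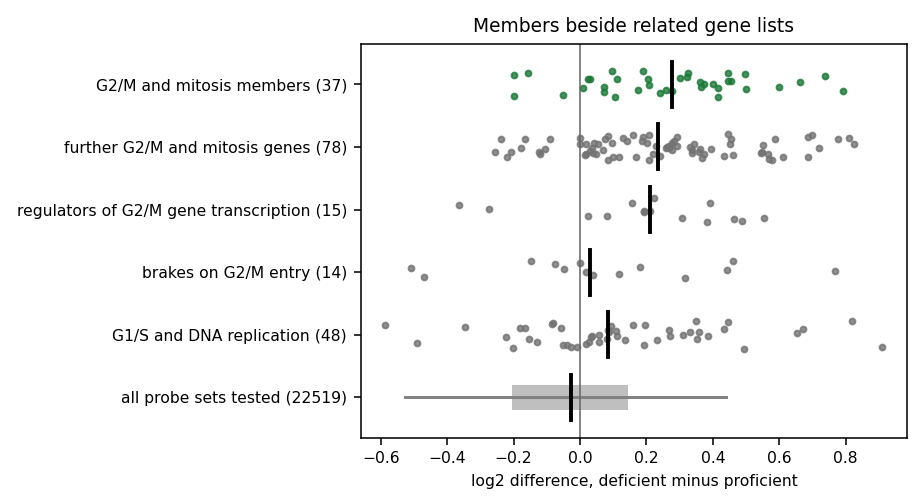
Log2 difference (deficient minus proficient) of single genes in the list of G2/M and mitosis members and in related lists, with black bars at the medians and the number of genes in parentheses; for all probe sets tested the box spans the 25th to 75th and the line the 5th to 95th percentiles. The medians are 0.28 for the members, 0.23 for further mitosis genes, 0.21 for regulators, 0.03 for brakes, 0.09 for G1/S genes and -0.03 for all probe sets.

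Marker lists of other cells and technical measures of the arrays differed between the groups to varying degrees. Of 10 genes of granulocyte-monocyte priming, 9 were above 0 and 5 rose in limma with the litter block at an adjusted p under 0.05, Ms4a3 and Ctsg among them. Their summed signal ran from 14900 to 42300 in deficient and from 4240 to 21100 in proficient arrays. Of 10 genes of maturing granulocytes, 8 were above 0 and 5 rose with the block, with sums of 5900 to 88200 in deficient and 557 to 18800 in proficient arrays; Itgam and Mmp8 were at the floor on all 6 arrays. Of 12 measured LSK and stem cell genes, 8 were below 0 and 3 fell with the block, namely Flt3, Procr and Hlf, with sums of 4640 to 9200 in deficient and 5800 to 10800 in proficient arrays. Erythroid sums were 2620 to 4620 in deficient and 2690 to 5910 in proficient arrays, with Alas2 and Hba-a1 at the floor throughout. Megakaryocyte sums were 1250 to 2750 in deficient and 629 to 2190 in proficient arrays. Pf4, with a log2 difference of 0.84, was their largest part on every array. Of 7 megakaryocyte genes 3 were above 0 and 4 below, with a median of -0.04. B and T cell sums were 1110 to 2230 in deficient and 763 to 1690 in proficient arrays, with Cd3g, Cd4 and Cd79a at the floor throughout. Nkg7, with a log2 difference of 0.90, was the largest part of the B and T cell sums on every array. Of 10 B and T cell genes 5 were above 0 and 2 below, with a median of 0.02. The spike-in controls had geometric means of 6910, 4180 and 3810 in deficient arrays of litters 1, 2 and 3 and of 3040, 3840 and 3360 in proficient ones, higher in the deficient array of each litter. The 18S ribosomal RNA probe sets stood at 153, 1340 and 3560 in deficient and 148, 727 and 2280 in proficient arrays. The 3′ minus 5′ difference of the Actb probe sets, a sign of RNA length, was 4.97, 4.27 and 3.30 log2 units in deficient and 4.05, 4.43 and 3.70 in proficient arrays. Within every litter the deficient array had the higher median of the mitotic genes and the higher priming and maturing sums. Priming sums in litters 1, 2 and 3 were 14900, 42300 and 36100 in deficient against 4240, 20700 and 21100 in proficient arrays. Maturing sums were 5900, 33500 and 88200 against 557, 6080 and 18800. Among deficient arrays, litter 1 had the highest median of the mitotic genes and the lowest priming and maturing sums. The part of these measures in the shift of the mitotic genes was not tested.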

How the data were processed

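RNA of 6 LSK samples was amplified in 2 linear rounds and hybridised to the Affymetrix Mouse Genome 430 2.0 array, 1 array each, per the labels' protocols. The deposited intensity values are linear MAS5 signals (no version stated), per the submitters' processing notes. They show a floor at 30 and trimmed means of 109 to 111 on every array. Amplification from the 3′ end can shift levels of single probe sets, and the number of arrays limits precision. Gene symbols came from GEO's annotation of the array. After leaving out 64 controls, 22519 of 45037 probe sets, those with a mean signal at or above the median of 32.6, entered limma (version 3.58.1, R 4.3.3; linear fits moderated with a variance trend) on log2(signal + 30). Benjamini-Hochberg adjustment ran over all of them at a threshold of 0.05. The fit was checked on simulated data.

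Groups came from the genotype labels. The labels leave unstated whether 1 mouse or several gave a sample, and the p-values reflect only how these samples spread, which may be technical. The labels name litter mates, which pairs the arrays by number; deviations of litter mates correlated at r = 0.77, 0.67 and 0.46 across probe sets. The fit without a litter term is the main one and litter as a replicate block its alternative. Values on every array are given for the 3 members of smallest p in each role, for all members below 0 and for Foxm1 and Mybl2, and from each related list the 4 genes of smallest p are named. Members and lists were chosen with earlier results of these data known, so no list was tested as a set. Promoters came from RefSeq, and those of 32 members were in the table.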

Additional observations from a re-analysis of the deposited data

How the results depend on the processing

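No member was called under any alternative, 15 of the 37 measured genes kept their sign under all of them, and in 645 of 703 pairs of gene and alternative the sign held. Part of these pairs could not turn. The block over all litters, the changed filters and the fit without a variance trend return the main differences by construction. The block with quantile normalization likewise repeats the differences of quantile normalization alone. The replicate block (litter) took the probe sets called to 188, and to 130 with quantile normalization, a pair of settings chosen after seeing the data; it changed no other call. Median centring gave 25 of the 37 members higher in all 3 litters, a larger share than the 25.2% of all probe sets. It moved the median of all probe sets to 0.06. The Aurora and Polo median was 0.49 with median centring, 0.31 with a pseudocount of 100 and 0.25 with the mean of probe sets, which also put the further mitosis genes at 0.13. Cenpf turned to 0.015 with quantile normalization, 0.041 with median centring and 0.017 with the mean of probe sets, and quantile normalization put Top2a at -0.19 and Mki67 at -0.18, with or without the block. When each array was left out in turn, role and list medians ran as follows: Aurora and Polo 0.22 to 0.60, anaphase-promoting complex -0.11 to 0.57, kinetochore 0.0085 to 0.42, spindle assembly -0.029 to 0.51, cytokinesis -0.055 to 0.55, Top2a and Mki67 -0.22 to 0.33, kinesins 0.018 to 0.26, checkpoint 0.21 to 0.55, cyclins 0.18 to 0.47, further mitosis genes 0.12 to 0.26, regulators -0.10 to 0.32, brakes -0.091 to 0.079, G1/S genes -0.15 to 0.21. Genes that crossed 0 ran thus: Plk1 -0.46 to 0.16, Bub1b -0.099 to 0.50, Kif23 -0.039 to 0.28, Kif4 -0.085 to 0.28, Nuf2 -0.024 to 0.71, Tpx2 -0.47 to 0.80, Prc1 -0.075 to 0.49, Top2a -0.22 to 0.32, Mki67 -0.29 to 0.33, Cdca8 -0.051 to 0.91, Cdc20 -0.11 to 0.57, Ube2c -0.14 to 0.86, Cenpa -0.20 to 0.60, Cenpf -0.28 to 0.19, Anln -0.50 to 0.19, Cenpe -0.18 to 0.28, Dlgap5 -0.40 to 0.19, Cdk1 -0.037 to 0.47, Cdc25b -0.038 to 0.28, Nusap1 -0.086 to 0.47, Kif20a -0.028 to 0.45, Kif2c -0.13 to 0.23. Those that kept their sign ran thus: Aurka 0.19 to 0.52, Aurkb 0.15 to 0.68, Birc5 0.50 to 0.99, Bub1 0.034 to 0.68, Ccna2 0.18 to 0.51, Ccnb2 0.031 to 0.51, Cdc25c 0.14 to 0.69, Ckap2l 0.25 to 0.82, Ect2 0.40 to 0.97, Fbxo5 0.068 to 0.46, Hmmr 0.22 to 0.60, Kif11 0.26 to 0.52, Mad2l1 0.46 to 0.92, Ndc80 0.11 to 0.85, Ttk 0.27 to 0.42. With the block and each litter left out, medians were Aurora and Polo 0.30 to 0.56 and genes Kif20a -0.015 to 0.30, Kif4 -0.25 to 0.31, Cenpe -0.22 to 0.43, Dlgap5 -0.43 to 0.15, Mki67 -0.19 to 0.20, Cdc25b -0.079 to 0.22, Kif2c -0.14 to 0.34, Tpx2 -0.28 to 0.33, Top2a -0.16 to 0.095, where Cenpe was -0.12 without litter 3. The cause of these changes was not tested, beyond the fewer arrays. The count over all 3 litters has no value with an array left out. With at least 52.3% of signals at the floor on each array, differences of weak genes are compressed.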
